A study of Mus musculus with 15 samples.

Results

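Hoechst-CD133+ GL261 cells held for 6 days in the hydrogel called D-gel@NP were compared with the same kind of cells given PBS and no hydrogel, across every gene of the count table. These are 6 of the 15 RNA-seq libraries of the series, 3 of each group, chosen by their treatment labels. GL261 is an established mouse glioma cell line, and the cells carry a wild-type genotype label. All 6 libraries received a cytokine cocktail, medium with 10% serum and fresh medium on days 2 and 4. D-gel@NP cells were mixed with a lyophilized chiral hydrogel on ice for 20 min before culture, whereas PBS cells had neither the hydrogel nor the ice step. The hydrogel, its NP load and the ice step therefore cannot be told apart in this comparison. The labels do not spell out NP or GSNP, nor list the cytokines. The other 9 libraries are L-gel@GSNP cells and D-gel@GSNP cells, both in hydrogels with the same cocktail, and untreated non-SP cells. All 15 carry 1 batch label, and nothing says whether the 3 replicates of a group were separate cultures, so p-values measure only the spread between these samples.

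Counts summed to 16626413, 38706152 and 40015227 in the D-gel@NP libraries and to 38473262, 42669664 and 39172830 in the PBS libraries, within a range of 16626413 to 98102794 over the series. PBS replicate 3 scored -39.99 on the second principal component, against -55.81 and -51.79 for PBS replicates 1 and 2. D-gel@NP libraries scored -2.85 to 3.46 there, so PBS replicate 3 was the PBS library nearest to them. D-gel@NP replicate 1 was the shallowest library and stood apart. On the third principal component it scored 71.57, and the other 14 libraries lay between -15.87 and 1.66. On log2(CPM + 1), 23 genes were at least 1 unit higher in it than in the mean of the other 2 D-gel@NP libraries, and 17 of them (73.9%) were annotated pseudogenes, against 9.03% of all tested genes. Distances between libraries (on log2 CPM) ran from 68.5 to 93.4 within D-gel@NP, from 67.3 to 71.9 within PBS and from 83.5 to 110.2 between the groups. Gapdh showed how uncertain such genes are, with 44.4, 86.4 and 356 CPM (reads relative to the TMM-adjusted library total) in D-gel@NP and 355, 58.6 and 229 CPM in PBS. Genes with many near-identical copies, ribosomal proteins among them, may have their reads split between copies and are uncertain in level. Prom1, which encodes CD133, the marker named in the cells' label, had 2, 4 and 4 reads in D-gel@NP and 6, 6 and 7 reads in PBS, too few to test.

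Cells that run short of an amino acid, or whose mitochondria or endoplasmic reticulum are under stress, phosphorylate the initiation factor eIF2. Bulk translation then slows while the mRNA of the transcription factor ATF4 is translated more, and ATF4 turns on genes for amino acid synthesis, uptake and tRNA charging. Cholesterol synthesis is run by another factor, SREBP2, which is held back when membranes hold enough sterol. Dividing cells draw on both pathways, and glioma cells are known for their demand for amino acids and sterols.

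Of 17497 genes tested, 2479 (14.2%) were higher and 2848 (16.3%) lower in D-gel@NP than in PBS cells at an adjusted p under 0.05 in edgeR's quasi-likelihood test with Benjamini-Hochberg adjustment. A gene past that threshold is called here, and all adjusted p-values below are from that test over all 17497 genes. In all 5327 genes (30.4%) were called, and the 3 D-gel@NP libraries did not overlap the 3 PBS libraries for 6959 genes (39.8%). With upper-quartile scaling in place of TMM, 2974 genes were higher and 2221 lower, so 57.2% of the called genes were higher, against 46.5%. Without D-gel@NP replicate 1 the counts were 2337 higher and 2309 lower, and without PBS replicate 3 they were 2387 higher and 2672 lower. A change of at least 2-fold was found for 493 higher genes (2.82% of those tested) and 184 lower genes (1.05%). Most of these were weakly expressed, since 103 of the 493 and 36 of the 184 reached a mean of 5 CPM in the higher group. The median log2 difference (D-gel@NP minus PBS) of all tested genes was 0.00.

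**Figure D1:**
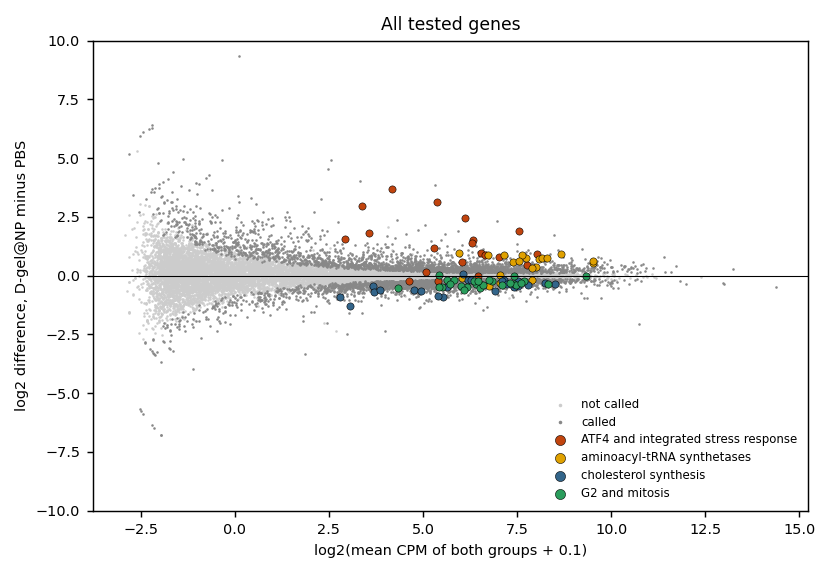
Log2 difference (D-gel@NP minus PBS) of all 17497 tested genes against the log2 of their mean CPM in both groups plus 0.1. Dark points are called genes, and coloured circles are the members of 4 gene lists. ATF4 and integrated stress response genes reach 3.71 above 0, and the members of the cholesterol synthesis list lie mostly below 0.

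Genes of the ATF4 and integrated stress response list had the highest median difference of the 47 lists examined. The lists were written with earlier results of these data known, so this rank is a description and no test. Of its 20 tested members, 16 were higher and 2 lower in D-gel@NP, against 14.2% and 16.3% of all tested genes, and the median log2 difference was 1.06. Without D-gel@NP replicate 1, 16 were higher and 0 lower. Every list count against PBS below is to be read beside those shares of all tested genes. Asns, which makes asparagine from aspartate, had 305, 272 and 306 CPM in D-gel@NP, against 81.9, 75.1 and 78.4 CPM in PBS. The 2 groups were far apart, and no D-gel@NP library came near the PBS range. In bulk RNA, a change in the share of cells of one kind and a change in RNA per cell cannot be told apart. Its log2 difference was 1.91 ± 0.06 (SE), a 3.75-fold higher level (adjusted p = 3.25e-16).

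Trib3, a pseudokinase that is an ATF4 target, had 89.2, 57.6 and 75.1 CPM in D-gel@NP and 6.22, 8.09 and 10.7 CPM in PBS. Every D-gel@NP library was above every PBS library, with a wider spread than for Asns, and the difference was 8.82-fold (log2 3.14 ± 0.16, adjusted p = 4.32e-12). Chac1, which breaks down glutathione, had 21.6, 15.4 and 17.3 CPM in D-gel@NP against 2.57, 1.81 and 2.63 CPM in PBS. It was again high in all 3 D-gel@NP libraries (log2 2.95 ± 0.25, adjusted p = 1.36e-08). Aldh18a1, which starts proline synthesis from glutamate, had 125, 113 and 115 CPM in D-gel@NP and 20.8, 19.7 and 24.6 CPM in PBS. The groups did not overlap, and the 5.42-fold difference had one of the lowest adjusted p-values of the comparison (7.18e-17). Cth, which makes cysteine from cystathionine, had 35.5, 26.8 and 37.9 CPM in D-gel@NP, against 2.65, 2.28 and 2.73 CPM in PBS. Its 13.1-fold difference was the largest of the list (log2 3.71 ± 0.14, adjusted p = 1.92e-14).

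Among the regulators, Atf4 itself averaged 339 ± 27.9 CPM in D-gel@NP and 181 ± 1.75 CPM in PBS (SD, n = 3 each), with an adjusted p of 3.74e-11. Atf5, a related transcription factor, averaged 118.5 ± 9.21 CPM in D-gel@NP and 41.9 ± 1.3 CPM in PBS (log2 1.5, adjusted p = 1.56e-12). Cebpb, a partner of ATF4 on DNA, had 17.3, 8.79 and 7.85 CPM in D-gel@NP and 3.32, 4.53 and 3.44 CPM in PBS. Replicate 1 was the high one, but all 3 D-gel@NP libraries were above PBS (adjusted p = 4.54e-05). Sesn2, a leucine sensor that restrains mTORC1 and is also counted among the p53 targets, averaged 54.1 ± 3.33 CPM in D-gel@NP and 24.1 ± 2.49 CPM in PBS (adjusted p = 5.07e-10). Ddit3, which encodes the factor CHOP, and Ppp1r15a, which recruits a phosphatase to eIF2, were not called, with log2 differences of 0.18 and -0.02. The 2 members that were lower were the eIF2 kinase genes Eif2ak3 (PERK, log2 -0.21) and Eif2ak4 (GCN2, log2 -0.22). Both calls were lost without D-gel@NP replicate 1 or 3, without PBS replicate 2 and with upper-quartile scaling, and that of Eif2ak4 also without D-gel@NP replicate 2 or PBS replicate 3. The list had 1 lower member in the fit of the 6 libraries alone. It also had 1 with limma on log2(FPKM + 1) in place of edgeR.

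ATF4 binds, together with a C/EBP partner, to a composite element whose core reads TGATGNAA. That motif was searched on both strands in windows of 250 bases before to 50 after each gene's start, taken from RefSeq on GRCm38.p6 and matched to the files by symbol. It occurred in 1304 of 32851 windows (3.97%) and, counted by gene, for 1219 of 27025 genes (4.51%). In the list it occurred for 7 of the 14 rising members that had a window and for 0 of the other 5. Those 5 were Ddit3, Ppp1r15a, the eIF2 kinase genes Eif2ak3 and Eif2ak4, and Stc2, which was not tested for a change. List and motif were both chosen with earlier results of these data known. The motif counts here and below are therefore a description and no test of the motif. The windows of 4 of the genes described are shown 5′ to 3′ because they hold the element, or lack it in spite of a large rise. Capitals mark the match, which reads as its reverse complement where the element lies on the other strand. Aldh18a1 has no match in its window.
Asns, chr6:7693160-7693459, minus strand: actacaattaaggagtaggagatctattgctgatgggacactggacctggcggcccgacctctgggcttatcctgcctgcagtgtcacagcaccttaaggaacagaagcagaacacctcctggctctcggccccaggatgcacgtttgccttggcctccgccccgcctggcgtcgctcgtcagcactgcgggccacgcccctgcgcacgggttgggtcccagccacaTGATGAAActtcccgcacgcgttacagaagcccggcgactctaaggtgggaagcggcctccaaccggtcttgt
Trib3, chr2:152344011-152344310, minus strand: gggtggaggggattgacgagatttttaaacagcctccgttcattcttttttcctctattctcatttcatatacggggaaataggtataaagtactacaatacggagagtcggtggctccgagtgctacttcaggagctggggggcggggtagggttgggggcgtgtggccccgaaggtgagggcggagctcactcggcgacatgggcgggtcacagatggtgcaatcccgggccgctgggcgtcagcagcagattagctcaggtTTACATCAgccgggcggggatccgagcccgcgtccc
Chac1, chr2:119350992-119351291, plus strand: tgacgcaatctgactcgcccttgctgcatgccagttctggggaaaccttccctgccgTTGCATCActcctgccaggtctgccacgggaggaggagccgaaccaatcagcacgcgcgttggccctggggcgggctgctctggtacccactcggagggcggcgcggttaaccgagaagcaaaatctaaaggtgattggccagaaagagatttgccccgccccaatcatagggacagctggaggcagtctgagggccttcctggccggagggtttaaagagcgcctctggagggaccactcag
Aldh18a1, chr19:40588414-40588713, minus strand: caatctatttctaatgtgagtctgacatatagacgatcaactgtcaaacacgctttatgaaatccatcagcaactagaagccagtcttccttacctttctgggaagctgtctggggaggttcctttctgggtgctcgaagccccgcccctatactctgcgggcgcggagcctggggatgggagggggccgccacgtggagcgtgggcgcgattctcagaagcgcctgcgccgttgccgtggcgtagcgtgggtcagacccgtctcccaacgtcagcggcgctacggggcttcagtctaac
Asns holds the form TGATGAAA on the coding strand, and Trib3 and Chac1 hold the element on the other strand, as TTACATCA and TTGCATCA. A match is a description of the letters, not evidence of binding.

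Genes that charge tRNAs rose with them. Of 20 tested cytosolic aminoacyl-tRNA synthetases, which join each amino acid to its tRNA, 15 were higher and 3 lower in D-gel@NP, with a median log2 difference of 0.62. The count was the same without D-gel@NP replicate 1. Nars, the asparagine enzyme, had 544, 497 and 541 CPM in D-gel@NP and 291, 275 and 269 CPM in PBS. The groups did not overlap, and the difference was 1.89-fold (log2 0.92 ± 0.05, adjusted p = 1.09e-11). The enzymes for methionine (Mars, 1.82-fold), cysteine (Cars, 1.84-fold) and isoleucine (Iars, 1.70-fold) rose to a similar extent, with adjusted p-values of 6.34e-11 or less. Hars and Qars, the enzymes for histidine and glutamine, fell instead. Hars averaged 91.0 ± 1.48 CPM in D-gel@NP and 125 ± 4.6 CPM in PBS (log2 -0.46, adjusted p = 2.35e-07), and Qars had a log2 difference of -0.29 (adjusted p = 0.000194). Kars, for lysine, was the third that fell (log2 -0.18, adjusted p = 0.00297). Among the synthetases with a promoter window, the motif was found in 5 of 9 that rose and in 0 of the other 3.

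In the serine synthesis and one-carbon list, 8 of 17 tested members were higher and 3 lower, with a median log2 difference of 0.25. Aldh1l2 and Mthfd2 had the largest log2 differences of the list. Aldh1l2, which oxidises formyl-tetrahydrofolate in mitochondria, had 76.9, 69.2 and 75.4 CPM in D-gel@NP and 5.34, 5.16 and 4.83 CPM in PBS. It was low in every PBS library and at a steady, higher level in every D-gel@NP library (14.4-fold, log2 3.85 ± 0.10, adjusted p = 5.76e-17). Mthfd2, the mitochondrial methylene-tetrahydrofolate dehydrogenase, had 225, 190.1 and 209 CPM in D-gel@NP against 42.0, 39.4 and 41.6 CPM in PBS. No library of one group reached the range of the other (5.07-fold, adjusted p = 7.18e-17). Psph and Psat1, which carry out the last 2 steps of serine synthesis, were 3.44-fold and 2.14-fold higher, with adjusted p-values of 4.59e-13 and 4.32e-13. The 3 members that fell were Mthfd1, the cytosolic trifunctional enzyme (log2 -0.29, adjusted p = 0.000298), Ahcy, which hydrolyses S-adenosylhomocysteine (log2 -0.26, adjusted p = 0.000553), and Gcsh, the H protein of the mitochondrial glycine cleavage system (log2 -0.33, adjusted p = 0.00153). Mthfd2l, a paralog of Mthfd2, was not called (log2 0.13, adjusted p = 0.317). Among the members with a promoter window, the motif was found in 0 of 7 that rose and in 0 of the other 8.

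**Figure D2:**
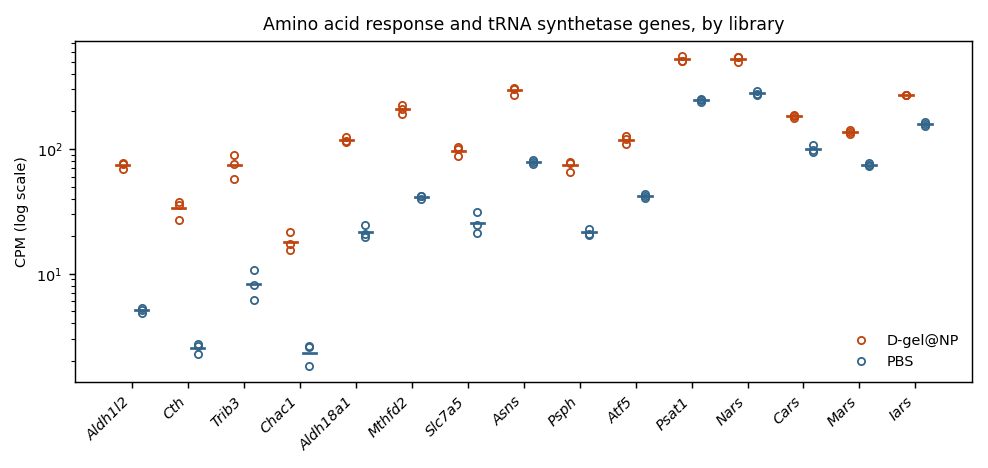
CPM of 15 genes of amino acid synthesis, the ATF4 response and tRNA charging, on a log axis, in the 3 D-gel@NP libraries (left of each pair) and the 3 PBS libraries (right). Circles are libraries and lines are means, and for each of the 15 genes all 3 D-gel@NP circles lie above the PBS circles.

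Amino acid transporters were mixed, with 6 of 14 tested members higher and 3 lower and a median log2 difference of 0.05. Slc7a5, the LAT1 carrier of large neutral amino acids, had 104, 87.2 and 99.7 CPM in D-gel@NP and 21.3, 24.8 and 31.0 CPM in PBS. The D-gel@NP libraries were all well above the PBS libraries (3.76-fold, adjusted p = 1.41e-12). Slc6a9, a glycine transporter, was 3.23-fold higher (adjusted p = 2.76e-10), and Slc7a1, which carries arginine and lysine, was 1.69-fold higher (adjusted p = 6.29e-09). Slc7a6 and Slc38a1, carriers of cationic and small neutral amino acids, fell by 0.32 on the log2 scale each (adjusted p = 0.000217 and 0.00123). Slc3a2, the heavy chain that partners LAT1, had a log2 difference of 0.06 and was not called. Among the transporters with a promoter window, the motif was found in 2 of 4 that rose and in 1 of the other 7. Those 7 include Slc7a8, which was not tested for a change.

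Components of the translation machinery were among the largest rises in absolute level, led by Eef1a1, an elongation factor with many near-identical copies, at 10512 ± 443 CPM in D-gel@NP and 8709 ± 255 CPM in PBS (adjusted p = 0.000153). Of 40 tested cytosolic ribosomal protein genes, 35 were higher and 0 lower in D-gel@NP (34 and 0 without replicate 1), and their summed level was 40879 ± 2344 CPM in D-gel@NP against 32743 ± 1574 CPM in PBS. The median log2 difference was 0.33, so the change per gene was small. Rpl5 had 921, 832.5 and 954 CPM in D-gel@NP and 649.8, 645 and 606 CPM in PBS. The groups did not overlap (1.42-fold, adjusted p = 2.88e-07). The elongation factor Eef2 averaged 3853 ± 93.7 CPM in D-gel@NP and 2935 ± 21.4 CPM in PBS (adjusted p = 1.59e-07). Rack1, a scaffold on the small ribosomal subunit, and Tpt1, a growth-related protein encoded by an mRNA of the same class as the ribosomal proteins, were 1.47-fold and 1.4-fold higher (adjusted p = 9.33e-08 and 1.72e-07). Ribosome biogenesis factors did not move as a group, with 6 of 28 tested members higher, 3 lower and a median of -0.03. Among the 6 were Npm1, the nucleolar chaperone (1.31-fold, adjusted p = 1.07e-05), and Myc, the growth-promoting transcription factor (1.32-fold, adjusted p = 5.12e-05).

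Cholesterol synthesis fell almost throughout. Of 24 tested members of the list, 0 were higher and 22 lower in D-gel@NP, against 16.3% of all tested genes, and the median log2 difference was -0.44. Without D-gel@NP replicate 1, 19 were lower. Fdps, which makes farnesyl diphosphate, had 91.6, 98.3 and 87.6 CPM in D-gel@NP and 152, 140.2 and 146 CPM in PBS. Its log2 difference was -0.66 ± 0.06 (adjusted p = 7.54e-08), with no overlap between the groups. Hsd17b7, a ketoreductase of the late pathway, had 27.9, 32.9 and 27.8 CPM in D-gel@NP against 53.7, 51.5 and 57.5 CPM in PBS. All 3 D-gel@NP libraries were lower (log2 -0.87 ± 0.07, adjusted p = 9.28e-09). Ebp and Sc5d, which act on the sterol nucleus in the last steps, fell by 0.89 and 0.49 on the log2 scale (adjusted p = 1.65e-07 and 3.5e-07). Tm7sf2, a sterol reductase, was also among the 12 largest falls of called genes with a mean of 5 CPM or more in PBS, with 4.81 ± 0.574 CPM in D-gel@NP and 11.7 ± 0.534 CPM in PBS (adjusted p = 5.67e-07). The other 2 members, Insig1 and Srebf2, both regulators of the pathway, were not called.

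Fatty acid synthesis went the same way in direction, with 0 of 14 tested members higher and 9 lower and a median log2 difference of -0.28. Acly, which supplies cytosolic acetyl-CoA to both pathways, averaged 276 ± 22.9 CPM in D-gel@NP and 361 ± 13.3 CPM in PBS (log2 -0.39, adjusted p = 8.76e-06). Me1, a source of NADPH, fell by 0.56 on the log2 scale, and the elongase Elovl6 and the desaturase Fads2 by 0.61 each, with adjusted p-values between 3.72e-06 and 1.01e-05. Soat2, which esterifies cholesterol for storage, rose, with 8.35, 6.66 and 6.82 CPM in D-gel@NP and 1.14, 0.976 and 1.24 CPM in PBS. That was a 6.45-fold difference with no overlap (adjusted p = 1.02e-09).

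Lysosomal genes fell in the same cells. Of 26 tested members of the lysosome and autophagy list, 3 were higher and 16 lower, with a median log2 difference of -0.25. Gpnmb, a transmembrane glycoprotein of melanosomes and lysosomes, had 418, 456 and 392 CPM in D-gel@NP and 789, 848 and 786 CPM in PBS. Every D-gel@NP library was far below the PBS range (log2 -0.94 ± 0.06, adjusted p = 1.84e-10). Gla, the alpha-galactosidase, averaged 16.6 ± 1.09 CPM in D-gel@NP and 32.8 ± 3.75 CPM in PBS (log2 -0.98, adjusted p = 2.58e-07). The protease gene Ctsz fell by 0.50 on the log2 scale (adjusted p = 1.78e-07). The members that rose included the autophagy receptor Sqstm1, at 795 ± 24.4 CPM in D-gel@NP and 639 ± 17.2 CPM in PBS (adjusted p = 1.07e-05). Atp6v0d2, a subunit of the vacuolar proton pump, was 4.74-fold higher at a low level of 2.17 CPM in D-gel@NP against 0.456 CPM in PBS (adjusted p = 4.5e-05).

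**Figure D3:**
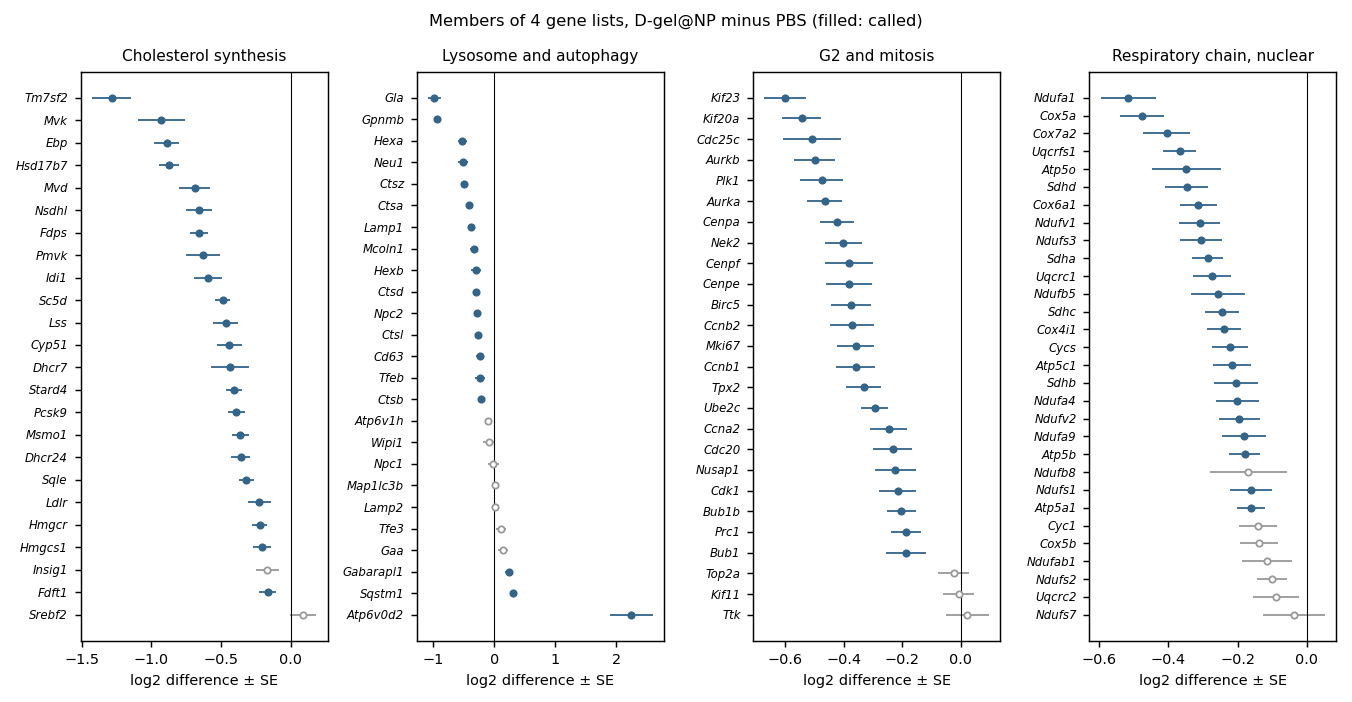
Log2 difference (D-gel@NP minus PBS) with its standard error for the tested members of 4 gene lists, other than any not reported here, sorted within a list; filled points are called. In the cholesterol, mitosis and respiratory chain lists all called members lie left of 0, and in the lysosome list 3 called members lie right of it.

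Respiratory chain genes fell by small steps. Of 30 tested nuclear-encoded members, 0 were higher and 23 lower (19 without D-gel@NP replicate 1), with a median log2 difference of -0.22. Cox5a, a subunit of cytochrome oxidase, had 27.9, 25.9 and 26.6 CPM in D-gel@NP and 37.7, 37.9 and 36.1 CPM in PBS. The libraries of the 2 groups were clearly apart (log2 -0.48 ± 0.06, adjusted p = 5.44e-06). Uqcrfs1, the iron-sulfur protein of complex III, fell by 0.37 and Sdha of complex II by 0.29 on the log2 scale (adjusted p = 4.52e-06 and 3.46e-05). Of 15 tested mitochondrially encoded genes, 0 were higher and 10 lower, and they took 4.63 ± 0.191% of all counts in D-gel@NP and 5.97 ± 0.343% in PBS. The largest fall in absolute level was mt-Co1, with 17420, 17065 and 18479 CPM in D-gel@NP and 26931, 24583 and 22803 CPM in PBS. The groups did not overlap (log2 -0.49 ± 0.06, adjusted p = 1.36e-06). With the mitochondrially encoded genes left out before scaling, 2562 genes were higher and 2697 lower. Hspa9, the mitochondrial HSP70, rose against this direction, at 1224 ± 85.0 CPM in D-gel@NP and 767 ± 4.26 CPM in PBS (1.60-fold, adjusted p = 4.28e-10), and it was the one of 16 tested heat shock genes that was higher, while 7 were lower.

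Proteasome subunits followed, with 0 of 31 tested members higher and 21 lower and a median log2 difference of -0.19. Psmc5, a base ATPase, averaged 109 ± 3.37 CPM in D-gel@NP and 141 ± 0.968 CPM in PBS (log2 -0.37, adjusted p = 2.66e-06). In the list of endoplasmic reticulum chaperones 2 of 20 tested members were higher and 10 lower, with a median of -0.14. The co-chaperone Dnajb11 fell by 0.49 on the log2 scale (adjusted p = 1.66e-07) and Sdf2l1 by 1.04 (adjusted p = 5.11e-05), while the 2 that rose were Herpud1, a factor in the degradation of misfolded proteins (log2 0.42, adjusted p = 3.93e-06), and the transcription factor gene Xbp1 (log2 0.36, adjusted p = 8.94e-05). Of 23 tested NRF2 and glutathione genes, 2 were higher and 12 lower. Nqo1, a quinone reductase and NRF2 target, had 21.5, 24.7 and 25.7 CPM in D-gel@NP against 48.7, 48.9 and 44.6 CPM in PBS. It was lower in each D-gel@NP library (log2 -0.97 ± 0.08, adjusted p = 1.44e-08). Slc7a11, the cystine importer that is a target of both NRF2 and ATF4, rose (log2 0.36, adjusted p = 0.000325).

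Genes of cell division were lower. Of 26 tested G2 and mitosis genes, 0 were higher and 23 lower in D-gel@NP (19 without replicate 1), with a median log2 difference of -0.36 and a summed level of 3054 ± 19.5 CPM in D-gel@NP against 3653 ± 72.0 CPM in PBS. Kif23, a kinesin of the midbody, had 52.2, 54.1 and 55.4 CPM in D-gel@NP and 82.0, 80.8 and 82.8 CPM in PBS. Replicates were tight and did not overlap (log2 -0.60 ± 0.07, adjusted p = 1.77e-06). The kinesin Kif20a, the kinase Aurka and the centromeric histone Cenpa fell by 0.54, 0.47 and 0.42 on the log2 scale, with adjusted p-values of 7.75e-06 or less. In the DNA replication list 2 of 33 tested members were higher and 11 lower, with a median of -0.07. Rrm2, a subunit of ribonucleotide reductase, and Tk1, the thymidine kinase, fell by 0.45 and 0.44 on the log2 scale (adjusted p = 1.92e-05 and 2.76e-05), while the helicase gene Mcm3 rose by 0.19 (adjusted p = 0.00577).

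Among 21 tested G1 regulators 3 were higher and 9 lower. The CDK inhibitor genes went in both directions. Cdkn1b (p27) averaged 97.5 ± 7.15 CPM in D-gel@NP and 69.9 ± 2.04 CPM in PBS (log2 0.48, adjusted p = 2.67e-06), and Cdkn2b (p15) averaged 37.2 ± 0.56 CPM in D-gel@NP and 25.1 ± 1.88 CPM in PBS (log2 0.57, adjusted p = 2.71e-05). Cdkn2c (p18) and Cdkn2d (p19) fell by 0.44 and 0.58 on the log2 scale (adjusted p = 8.25e-05 and 3.58e-06), as did the cyclins Ccnd3 and Ccne2 by 0.41 and 0.38 (adjusted p = 4.12e-05 and 6.43e-05). Of 26 tested p53 targets, 9 were higher and 5 lower with a median of 0.05, and Cdkn1a, the classical target, was not called (log2 0.02, adjusted p = 0.829). In the BCL2 and caspase list 5 of 20 tested members were higher and 5 lower. The BH3-only genes Bcl2l11 (BIM) and Bmf, whose products promote apoptosis, were 1.56-fold and 3.73-fold higher (adjusted p = 2.89e-08 and 9.66e-08). Bbc3, of the same class, rose by 0.48 on the log2 scale (adjusted p = 0.0145). Bad and Pmaip1, BH3-only genes too, fell by 0.52 and 0.29 (adjusted p = 0.00046 and 0.00436). The pore-forming family members Bok and Bak1 fell by 0.65 and 0.39 on the log2 scale (adjusted p = 0.000122 and 0.000123). Bax, another pore-forming member, was not called (log2 0.03, adjusted p = 0.763).

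**Figure D4:**
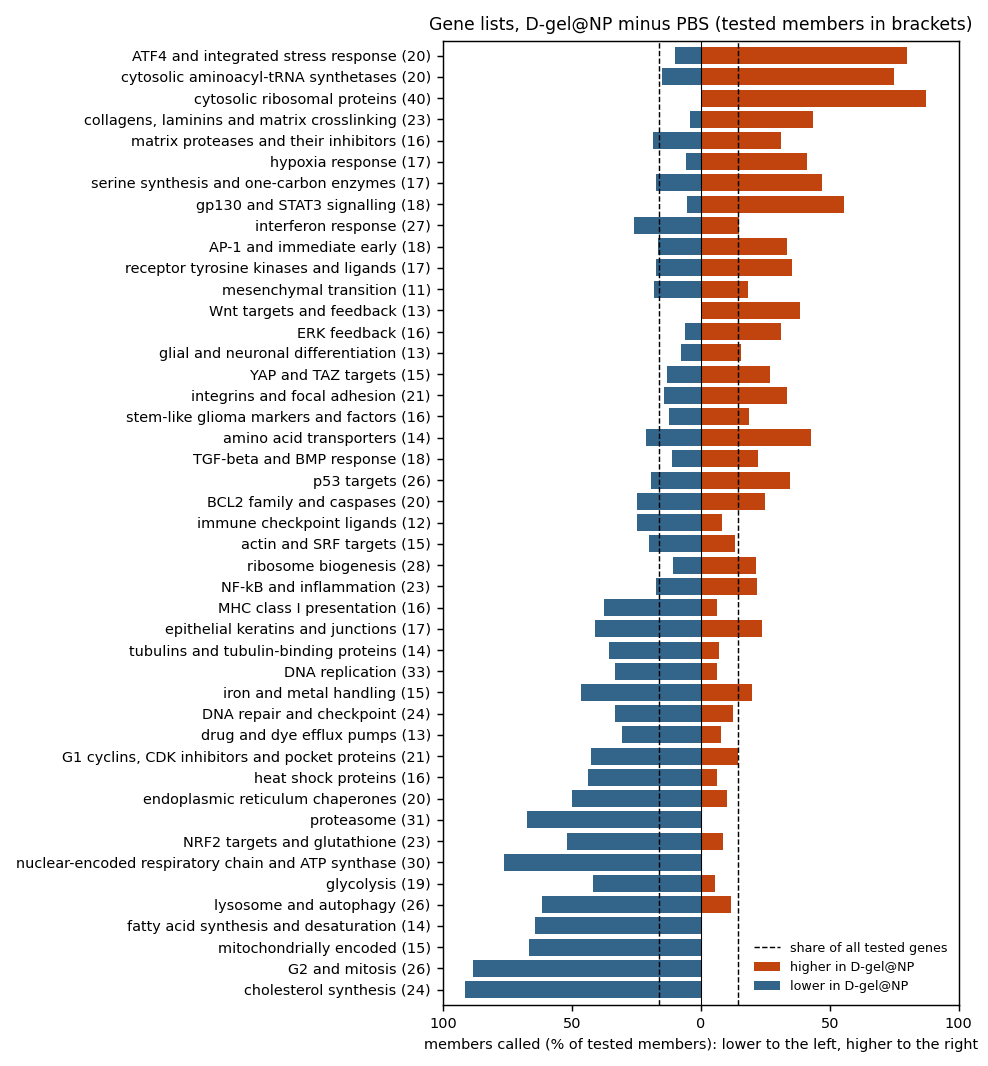
Share of tested members that were called higher (right) or lower (left) in D-gel@NP than in PBS for each gene list with at least 10 tested members, sorted by median log2 difference; the number of tested members is in brackets. Dashed lines are the shares of all tested genes, 14.2% higher and 16.3% lower.

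Large rises were also measured outside these pathways. Tmprss6, a serine protease that restrains the iron hormone hepcidin in liver, had 12.3, 9.73 and 11.3 CPM in D-gel@NP and 0.156, 0.256 and 0.683 CPM in PBS. It was near 0 in every PBS library and at about 10 CPM in every D-gel@NP library (30.1-fold, log2 4.91 ± 0.26, adjusted p = 8.54e-12), and without PBS replicate 3 the log2 difference was 5.71. Atp2a3, a calcium pump of the endoplasmic reticulum, had 11.7, 8.62 and 10.8 CPM in D-gel@NP and 0.467, 0.465 and 0.405 CPM in PBS, and was likewise almost absent from PBS cells (23-fold, adjusted p = 3.23e-11). Alpl, the tissue-nonspecific alkaline phosphatase, and Steap4, a metalloreductase, were 9.74-fold and 5.22-fold higher (adjusted p = 9.41e-10 and 1.14e-07). Lcn2, an iron-siderophore binding protein of the acute phase, rose as well, with 3.46, 2.71 and 3.35 CPM in D-gel@NP against 0.311, 0.442 and 0.962 CPM in PBS (adjusted p = 9.66e-07). The D-gel@NP libraries were all higher, although at low levels. The iron storage gene Fth1 fell, at 862 ± 25.4 CPM in D-gel@NP and 1163 ± 40.6 CPM in PBS (log2 -0.43, adjusted p = 8.61e-08). In the iron and metal list as a whole 3 of 15 tested members were higher and 7 lower.

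The largest falls included genes best known from stratified epithelium. Tmprss11b, an airway and squamous-type serine protease, had 2.33, 2.36 and 2.27 CPM in D-gel@NP and 14.7, 13.5 and 11 CPM in PBS. It was uniformly low in D-gel@NP (log2 -2.50 ± 0.26, adjusted p = 2.14e-07). Sprr1b, a cornified envelope precursor, had 1.91, 6.23 and 6.57 CPM in D-gel@NP and 28.6, 27.9 and 24.1 CPM in PBS. Replicate 1 was the lowest D-gel@NP library, and none came near PBS (log2 -2.36 ± 0.22, adjusted p = 3.86e-08). Its relative Sprr1a was far more abundant, at 341 ± 9.33 CPM in D-gel@NP and 542 ± 41.4 CPM in PBS (log2 -0.67, adjusted p = 3.86e-08). The keratins Krt80 and Krt14 fell by 0.65 and 0.44 on the log2 scale (adjusted p = 6e-07 and 0.000136), whereas Krt5 rose by 0.93 at 3.31 CPM in D-gel@NP and 1.73 CPM in PBS (adjusted p = 0.00269). Of 17 tested epithelial keratin and junction genes, 4 were higher and 7 lower. S100a6, a calcium-binding protein, showed the largest fall in CPM of any gene named that is not mitochondrially encoded, with 578 ± 45 CPM in D-gel@NP and 1117 ± 146 CPM in PBS (adjusted p = 1.99e-08).

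Cd68, a lysosomal glycoprotein used as a macrophage marker, had 13.7, 17.8 and 17.4 CPM in D-gel@NP and 45.2, 46.3 and 35.7 CPM in PBS. The D-gel@NP libraries all lay below the PBS libraries (log2 -1.36 ± 0.14, adjusted p = 2.99e-07). Of 12 macrophage and microglia markers with counts, 9 were tested, 1 of which was higher and 3 lower. Their summed level ranged from 34.5 to 42.4 CPM in D-gel@NP and from 69.4 to 76.4 CPM in PBS, with Cd68 and Csf1r making up most of it. Tyrobp had 2 reads over the D-gel@NP libraries and 0 over the PBS libraries, and Tmem119 had 4 reads over D-gel@NP and 6 over PBS. Ptprc had 30 reads over D-gel@NP and 56 over PBS. Itgam had 246 reads over D-gel@NP and 218 over PBS, and Lyz2 had 146 over D-gel@NP and 266 over PBS. Cx3cr1 had 40 over D-gel@NP and 23 over PBS, and Fcer1g had 22 over D-gel@NP and 20 over PBS. Ptprc, Itgam, Lyz2, Cx3cr1 and Fcer1g were tested and not called. The marker that was higher was Adgre1, with 32 reads over D-gel@NP and 4 over PBS (log2 3.24, adjusted p = 0.00906). Those that were lower were Cd68, Csf1r and P2ry12. Fibroblast and pericyte markers summed to 1459 to 1515 CPM in D-gel@NP and 1292 to 1367 CPM in PBS, nearly all of it Dcn. Of 7 tested, Dcn, Pdgfrb and Col3a1 were higher and Pdgfra was lower. Col1a2 and Thy1, too low to test, had 0 reads over D-gel@NP and 6 and 2 reads over PBS. The part of other cell types in these results was not tested.

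In the matrix list 10 of 23 tested members were higher and 1 lower in D-gel@NP, with a median log2 difference of 0.30. Fibronectin (Fn1) had 3246, 3640 and 3385 CPM in D-gel@NP against 1528, 1926 and 2470 CPM in PBS. The PBS libraries were spread, and none reached the lowest D-gel@NP library (1.73-fold, adjusted p = 7.74e-06). The collagens Col3a1 and Col5a2 were 4.33-fold and 5.05-fold higher, but at 2.97 CPM and 2.12 CPM in D-gel@NP, against 0.695 CPM and 0.413 CPM in PBS (adjusted p = 1.36e-06 and 2.31e-05). Of 18 tested gp130 and STAT3 genes 10 were higher and 1 lower. The kinase gene Pim1, a STAT3 target, averaged 75.5 ± 1.89 CPM in D-gel@NP and 50.6 ± 5.2 CPM in PBS (adjusted p = 1.79e-06), and Osmr, the oncostatin M receptor, was 1.77-fold higher (adjusted p = 7.19e-05). Cebpb, counted above, belongs to this list too. The member that was lower was the cytokine gene Il11, at 0.25 CPM in D-gel@NP and 0.978 CPM in PBS (log2 -1.85, adjusted p = 0.00388). The feedback genes Socs3 and Cish were not called (log2 0.13 and 0.08, adjusted p = 0.346 and 0.711).

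Of 17 tested hypoxia-response genes 7 were higher and 1 lower (5 and 1 without D-gel@NP replicate 1). Vegfa, the vascular growth factor, had 153, 129 and 128 CPM in D-gel@NP and 61.7, 70.7 and 70.4 CPM in PBS. The groups did not overlap, and the level was 2.02-fold higher (adjusted p = 1.33e-05). Ddit4, an mTORC1 inhibitor that is also in the ATF4 list, was 1.76-fold higher (adjusted p = 1.27e-06). The 9 members that were not called included Bnip3 (log2 0.50, adjusted p = 0.0952) and the glucose carrier gene Slc2a1 (log2 -0.09, adjusted p = 0.537). Glycolysis genes did not go with the hypoxia-response genes that rose, as 1 of 19 tested members was higher and 8 lower. The lactate dehydrogenase gene Ldha averaged 891 ± 19.9 CPM in D-gel@NP and 1130 ± 62.9 CPM in PBS (log2 -0.34, adjusted p = 5.45e-05).

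Inflammatory genes were mixed. Of 23 tested NF-kB genes 5 were higher and 4 lower. The chemokine Ccl2, which attracts monocytes, had 46.0, 41.8 and 42.2 CPM in D-gel@NP and 92.3, 85.0 and 84.6 CPM in PBS. It was lower in all D-gel@NP libraries (log2 -1.01 ± 0.08, adjusted p = 1.69e-09), and the neutrophil chemokine Cxcl1 fell by 0.54 (adjusted p = 5.04e-06). Interferon-response genes numbered 4 higher and 7 lower of 27 tested, against 14.2% and 16.3% of all tested genes. Usp18, which removes ISG15, rose 1.75-fold (adjusted p = 1.99e-08), while Oas1a, a sensor of double-stranded RNA, fell by 0.79 and Irf7 by 1.11 on the log2 scale (adjusted p = 4.69e-05 and 0.000175). Of 16 tested MHC class I genes 1 was higher and 6 lower, led by Tapbp, the peptide-loading factor tapasin, at 61.8 ± 6.68 CPM in D-gel@NP and 96.1 ± 3.39 CPM in PBS (adjusted p = 2.15e-07). Among 12 tested immune checkpoint ligand genes 1 was higher and 3 lower. Lgals9, a ligand of the receptor TIM-3, fell by 0.93 on the log2 scale (adjusted p = 3.15e-09).

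ERK feedback genes were higher in 5 of 16 tested cases and lower in 1. Spred1, an inhibitor of the pathway, rose by 0.49 and the phosphatase gene Dusp6 by 0.53 on the log2 scale (adjusted p = 9.26e-08 and 9.05e-06). Receptor genes moved in both directions. In the list of receptor tyrosine kinases and ligands, 6 of 17 tested members were higher and 3 lower. Pdgfra had 14.8, 31.2 and 23.7 CPM in D-gel@NP and 50.4, 50.7 and 50.4 CPM in PBS, a wide spread in D-gel@NP that stayed below PBS throughout (log2 -1.08 ± 0.14, adjusted p = 4.66e-06). Egfr fell by 0.52 (adjusted p = 2.23e-05), and Fgfr1 rose by 0.43 on the log2 scale (adjusted p = 6.55e-05). Of 9 tested Notch pathway genes 4 were higher and 0 lower. They included Maml1, a coactivator, and Rbpj, the pathway's DNA-binding factor, which rose by 0.63 and 0.42 on the log2 scale (adjusted p = 4.64e-06 and 1.17e-05).

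Stem-like and efflux genes bear on the Hoechst and CD133 names of these cells. Of 16 tested stem-like glioma genes 3 were higher and 2 lower, against 14.2% and 16.3% of all tested genes. Their median log2 difference was 0.06. Sox4, a transcription factor of progenitor cells, had 338, 352 and 350.1 CPM in D-gel@NP and 206, 224 and 234 CPM in PBS. All D-gel@NP libraries were above the PBS range (1.57-fold, adjusted p = 4.94e-08), and the RNA-binding protein gene Msi2 was 1.5-fold higher (adjusted p = 2.83e-06). Aldh1a1, a retinal dehydrogenase, averaged 939 ± 70.1 CPM in D-gel@NP and 1364 ± 64.5 CPM in PBS (log2 -0.54, adjusted p = 4.77e-08). Cd44, the hyaluronan receptor, fell by 0.31 (adjusted p = 1.26e-05). Nes, which encodes nestin, had 1.57 ± 0.376 CPM in D-gel@NP and 1.24 ± 0.53 CPM in PBS and was not called (adjusted p = 0.28). Gfap, the astrocyte filament gene, was at 0.213 ± 0.134 CPM in D-gel@NP and 0.28 ± 0.0214 CPM in PBS, and Olig2 and Tubb3 were too low to test. Sox2 was not analysed here.

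The pump gene Abcg2, whose product exports Hoechst dye, had 55.1, 49.4 and 53.2 CPM in D-gel@NP and 55.9, 54.7 and 52.4 CPM in PBS. The groups overlapped, and the 95% interval of the log2 difference ran from -0.16 to 0.06 (adjusted p = 0.558). Abcb1a, another exporter, overlapped as well at 43.2 ± 3.12 CPM in D-gel@NP and 41.2 ± 1.88 CPM in PBS (interval -0.09 to 0.21, adjusted p = 0.582). Of 13 tested efflux genes 1 was higher and 4 lower, among them Abcc3, at 115 ± 3.57 CPM in D-gel@NP and 163.5 ± 5.25 CPM in PBS (adjusted p = 1.78e-07), and Abcc2 (log2 -0.34, adjusted p = 6.95e-06).

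Set beside L-gel@GSNP cells, which received the other gel form with a GSNP load, D-gel@NP cells were higher for 1948 genes (11.1%) and lower for 1457 (8.33%), 19.5% of all tested genes. The ATF4 list was higher still in D-gel@NP, with 11 of 20 tested members higher and 0 lower. Asns had 305, 272 and 306 CPM in D-gel@NP and 222, 213 and 197 CPM in L-gel@GSNP, so both hydrogel groups were above PBS and D-gel@NP was the higher (log2 0.48, adjusted p = 2.72e-06). Trib3 did not pass the test between them (log2 0.22, adjusted p = 0.313). Of 24 cholesterol genes 20 were higher and 0 lower in D-gel@NP than in L-gel@GSNP, and Fdps averaged 92.5 ± 5.4 CPM in D-gel@NP and 64.6 ± 4.0 CPM in L-gel@GSNP (adjusted p = 4.9e-06). Gpnmb had 422 ± 32.0 CPM in D-gel@NP and 125 ± 8.82 CPM in L-gel@GSNP (log2 1.76, adjusted p = 3.51e-14). Hypoxia-response genes were lower in D-gel@NP for 15 of 17 tested members and higher for 1, and glycolysis genes lower for 14 of 19 and higher for 1. Bnip3, a mitophagy receptor induced by low oxygen, had 31.7, 19.1 and 26.3 CPM in D-gel@NP and 120, 74.6 and 154 CPM in L-gel@GSNP, with no overlap (log2 -2.21 ± 0.22, adjusted p = 3.74e-07). For G2 and mitosis genes 0 were higher and 2 lower of 26. The gel form and the load both differ between these groups and cannot be told apart.

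Against D-gel@GSNP cells, in the same gel form with the GSNP load, 5183 genes (29.6%) were higher and 5031 (28.8%) lower in D-gel@NP, 58.4% of all tested genes. Distances ran from 129 to 146 between the groups, above the range between D-gel@NP and PBS. On the first principal component the D-gel@GSNP libraries (-67.87 to -61.76) lay with the untreated non-SP libraries (-63.95 to -62.87), while D-gel@NP libraries scored 48.72 to 50.83. The ATF4 list was higher in D-gel@NP for 18 of 20 members and lower for 1, with a median log2 difference of 1.73. Trib3 had 89.2, 57.6 and 75.1 CPM in D-gel@NP and 2.54, 3.77 and 3.54 CPM in D-gel@GSNP, and was low in all 3 D-gel@GSNP libraries (log2 4.48, adjusted p = 3.65e-15). Slc7a5 went the other way, at 96.8 ± 8.54 CPM in D-gel@NP and 125.5 ± 5.27 CPM in D-gel@GSNP (log2 -0.38, adjusted p = 0.000592), while PBS libraries averaged 25.7 ± 4.89 CPM. Mitotic genes were lower in D-gel@NP for 25 of 26 and higher for 0, and Kif23 averaged 53.9 ± 1.64 CPM in D-gel@NP and 126 ± 6.34 CPM in D-gel@GSNP (log2 -1.22, adjusted p = 2.26e-12). DNA replication genes were lower for 31 of 33. Tppp, a tubulin polymerization-promoting protein, had 47.8, 53.5 and 55.2 CPM in D-gel@NP and 0.652, 0.88 and 0.781 CPM in D-gel@GSNP (log2 6.07, adjusted p = 7.92e-20), while it averaged 52.2 ± 3.87 CPM in D-gel@NP and 48.9 ± 2.58 CPM in PBS.

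**Figure D5:**
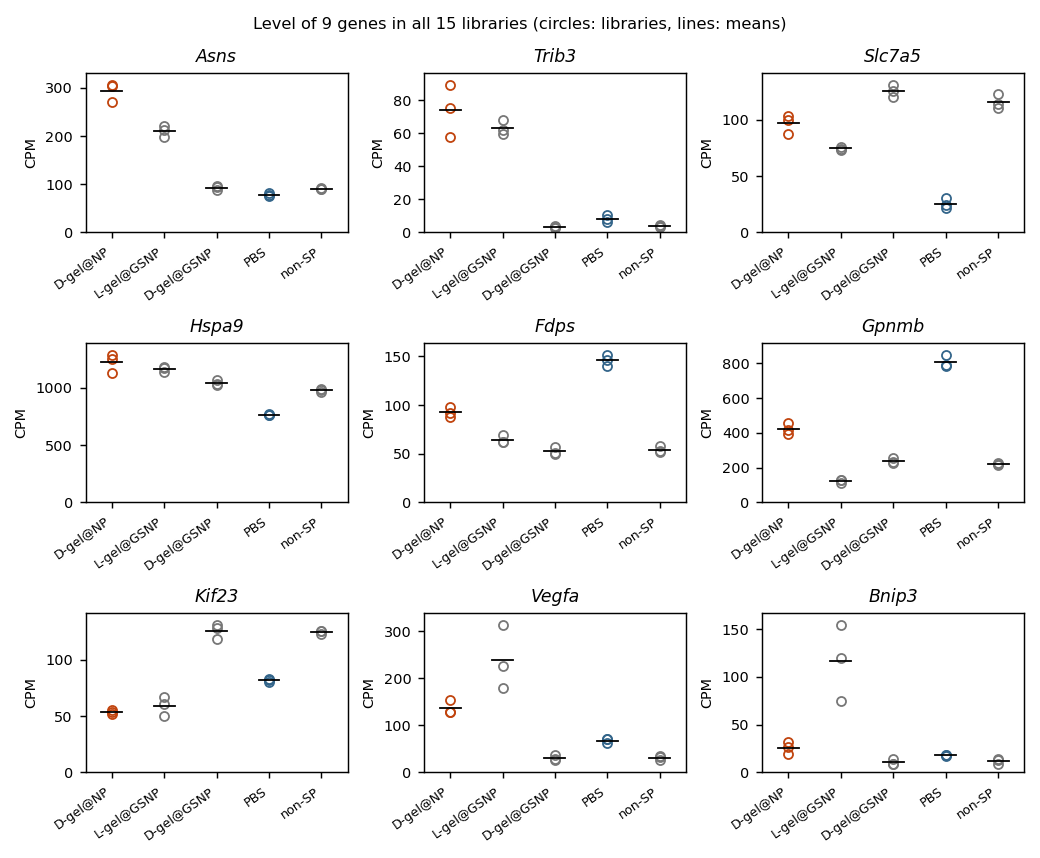
CPM of 9 genes in all 15 libraries, from 0, with D-gel@NP at the left of each panel and the other hydrogel groups, PBS and non-SP cells after it; circles are libraries and lines are means. Asns and Trib3 are high in D-gel@NP and L-gel@GSNP, Gpnmb and Fdps are highest in PBS, and Bnip3 is highest in L-gel@GSNP.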

How the data were processed

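Gene counts were deposited by the authors for 34259 genes in all 15 libraries, with FPKM values beside them. Per the submitters' processing notes, fastp 0.22.0, HISAT2 2.1.0, featureCounts and DESeq2 were used on GRCm39; the annotation release, strand setting and handling of reads with several matches are not given in the sources used here. The deposited FPKM values equalled count per length and total count for all 34259 genes (relative tolerance 0.0001), so they add no depth information. Between 62.3% and 66.4% of counts from 1 to 20 were even in each library, and the cause was not tested.

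Counts were scaled by TMM, filtered with filterByExpr by group (17497 genes kept) and fitted with edgeR 4.0.16 (R 4.3.3) over all 15 libraries in 1 quasi-likelihood model, with p-values adjusted by Benjamini-Hochberg over all kept genes. The biological coefficient of variation was 8.06%, and the median 95% interval of a log2 difference was 0.22 to either side. The fit was tested on simulated data, where it missed part of the changed genes, so a gene that was not called may still differ. SDs are over the 3 libraries of a group, and SEs are those of the fitted log2 differences. Symbols came from the files' gene IDs and the annotation (32434 genes), and 1825 IDs had none.

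Genes were named by rule: the 12 largest rises and falls among called genes without overlap whose higher mean was 5 CPM or more, the 6 largest rises and falls in CPM, up to 4 called members of each list with the lowest adjusted p and up to 2 of the other direction, a panel of 10 genes, and the 5 largest rises and falls against each other hydrogel group. Atf4, Kars, Cdkn1a, Slc3a2, Ddit3, Ppp1r15a, Insig1, Srebf2, Gapdh and the cell markers were chosen after their values were seen. So were Bad, Pmaip1, Bax, Socs3, Cish, Slc2a1, Gcsh and Mthfd2l. The comparison, the 47 gene lists and the motif were chosen with earlier results of these data known. Some genes that the rule names are not reported here individually; counts over lists and over all genes include them. The comparisons share the D-gel@NP libraries. Alternatives were other scaling, filters, DESeq2 1.42.0, limma 3.58.1 on log2(FPKM + 1) or log2(FPKM + 0.1), a replicate block, thinned counts and each library left out.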

Additional observations from a re-analysis of the deposited data

How the results depend on the processing

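Across 18 alternatives, 226 of 264 named called genes passed the threshold in the same direction in each alternative that tested them. Another 38 were lost in at least 1, and no direction turned. Some genes were not tested in every alternative, such as the mitochondrially encoded genes where these were left out. Leaving out 1 library at a time gave 1994 to 2387 higher and 2187 to 2672 lower genes, 417 to 563 higher and 141 to 186 lower genes at 2-fold, 2594 to 3037 genes called against L-gel@GSNP and 9517 to 9850 against D-gel@GSNP. Counts at 2-fold moved most. Limma on log2(FPKM + 1) gave 72 higher and 19 lower genes, or 73 and 21 with no filter, and a pseudocount shrinks the change of low genes by construction. With at least 1 CPM in 3 libraries, 107 genes were lower at 2-fold, where fewer genes were tested. DESeq2 called 2579 higher and 3000 lower genes, thinning every library to 16626413 counts gave 2365 and 2345, and the 6 libraries alone gave 2127 and 2326.

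Same-numbered D-gel@NP and PBS libraries correlated in their deviations from the group means at 0.024, 0.001 and -0.006. These values show no pairing by number. With so few libraries per group they cannot decide whether samples were paired. A fit with the replicate number as a replicate block gave 2494 higher and 2818 lower genes (486 and 171 at 2-fold), 3425 genes called against L-gel@GSNP and 10193 against D-gel@GSNP. D-gel@NP replicate 1 was the shallowest library. Genes under 1 CPM in both groups made up 186 of the 493 rises and 82 of the 184 falls at 2-fold.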

Other observations

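Villin (Vil1), an actin-bundling protein of microvilli, had 133, 135 and 129.6 CPM in D-gel@NP and 59.5, 56.4 and 63.5 CPM in PBS. It was higher in all 3 D-gel@NP libraries (2.22-fold, adjusted p = 7.32e-11 in edgeR's quasi-likelihood test), while the cytoplasmic actin gene Actg1 fell by 0.23 on the log2 scale (adjusted p = 0.00219). Map2, a microtubule protein of neurons, had 4.35, 4.31 and 4.3 CPM in D-gel@NP and 0.519, 0.279 and 1.19 CPM in PBS (adjusted p = 5.63e-07). Together with the other neuron markers it summed to 4.67 to 4.89 CPM in D-gel@NP and 1.21 to 1.9 CPM in PBS. Map2 alone averaged 4.32 CPM in D-gel@NP and 0.662 CPM in PBS. Of 3 tested neuron markers 1 was higher and 1 lower. The lower one was Syt1, with 15 reads over D-gel@NP and 68 over PBS (log2 -1.87, adjusted p = 0.0392). Tubulin genes went lower in 5 of 14 tested cases and higher in 1, with Tubb4b at 257 ± 10.3 CPM in D-gel@NP and 351 ± 3.31 CPM in PBS (adjusted p = 4.53e-07).

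Akap12, a scaffold protein for kinase A, had 15.9, 19.7 and 15.6 CPM in D-gel@NP and 45.8, 44.0 and 40.6 CPM in PBS (log2 -1.34, adjusted p = 2.48e-11), and 103 ± 3.55 CPM in D-gel@GSNP. Anxa8, a calcium-dependent membrane-binding protein, averaged 58.9 ± 1.19 CPM in D-gel@NP and 148 ± 17 CPM in PBS (log2 -1.33, adjusted p = 8.82e-11). The copper transport protein ceruloplasmin (Cp) rose 1.83-fold (adjusted p = 1.2e-05), and the metallothionein Mt1 fell by 0.70 on the log2 scale (adjusted p = 1.15e-05).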
